A study of Mus musculus with 12 samples.

Results

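The 41 genes described here encode the machinery that copies DNA and supplies its building blocks. They were taken by symbol out of 23284 symbols in the deposited RNA-seq table. The list was arranged in 8 steps (origin licensing, helicase, polymerases and primase, clamp and single-strand binding, Okazaki fragments, nucleotide supply, chromatin assembly and S phase entry). It was chosen with earlier results of these data known. All 41 were present, each as a single entry. They were followed across 4 groups of mouse muscle progenitors with 3 libraries each, all of the strain 129P2/OlaHsd and all sorted by flow cytometry as α7-integrin+ VCAM+ cells that lacked CD31, found on endothelium, and CD45, found on leukocytes. Cells of the transplant group were recovered from the tibialis anterior, a lower leg muscle, 1 month after it had received teratoma-derived cells of the same sort. Cells of the teratoma group came from teratomas, tumours formed by pluripotent stem cells, at 3 weeks. Adult cells came from the hindlimbs of 8-week-old males, and embryo cells from whole embryos at E14.5 (days of embryonic development).

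Several features of the groups limit what a comparison can show. The labels do not name the host of the transplants or a marker that separates donor from host cells. Stage and body site cannot be told apart between adult hindlimbs and whole embryos. The replicates are called biological without a statement that each came from its own animal, so the p-values speak only for the spread among these libraries, which may be technical. The libraries measure bulk RNA, in which fewer replicating cells and less RNA per cell cannot be told apart.

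Before S phase, the origin recognition complex, Cdc6 and Cdt1 load the MCM helicase, a ring built of Mcm2 to Mcm7, onto DNA, and geminin (Gmnn) then blocks Cdt1 so that no origin is used again in the same cycle. During S phase Cdc45 and the GINS complex activate the helicase, polymerase alpha with its primase starts each strand, and polymerases delta and epsilon extend it on the sliding clamp PCNA, which the RFC complex loads. Ribonucleotide reductase, thymidylate synthase and thymidine kinase supply deoxynucleotides, and most of these genes are transcribed under E2F factors in dividing cells. In adult muscle most satellite cells, the resident stem cells, are quiescent, whereas fetal muscle progenitors divide.

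Values are FPKM, a measure of fragments scaled to transcript length and library size, as the authors deposited them. Changes were tested with limma on log2(FPKM + 1) over the 12699 genes at 1 FPKM or more in at least 3 of the 12 libraries, and a gene was called at a Benjamini-Hochberg adjusted p under 0.05. A positive change is higher in the group named first, and the added 1 FPKM understates the changes of low genes. Sequencing depth is unknown, so no interval or detection limit is given, and a value of exactly 0 may reflect a failed estimate and is printed as listed. All 7 myogenic marker genes (Pax7, Myf5, Myod1, Itga7, Vcam1, Des and Cdh15) were at 1 FPKM or more in every library. Their sum was 381 to 524 FPKM in transplant and 345 to 427 FPKM in teratoma. It was 832 to 989 FPKM in adult and 129.5 to 159 FPKM in embryo, lowest in the group where the replication genes were highest. In adult against embryo 5 of the markers were higher, 1 was lower and 1 was not called. Of all tested genes, 15.8% were higher and 36.9% lower. In adult, Myod1 was at 423, 442 and 343 FPKM and Des at 238, 285 and 265 FPKM. Pax7 was lowest in adult, at 8.24, 9.02 and 10.1 FPKM, against 14.7, 14.3 and 13.1 FPKM in embryo. Embryo replicate 2 stood apart from its group: 74 genes had a 0 in it although the other two embryo libraries held at least 5 FPKM, whereas each of the remaining libraries had 6 to 27 such genes. No replication gene was among them.

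Replication genes were highest in embryo cells, intermediate in teratoma cells, and low in transplant and adult cells. Their summed level was 108, 114 and 139 FPKM in the transplant libraries, 530, 399 and 443 FPKM in the teratoma libraries, 177, 182 and 174 FPKM in the adult libraries, and 1048, 1173 and 1046 FPKM in the embryo libraries. The ranges of the 4 groups did not overlap. In every library of a group, 22 of the 41 genes reached 1 FPKM in transplant, 38 in teratoma, 18 in adult and 40 in embryo. Counted per library, 24 to 29 did so in transplant, 38 to 40 in teratoma, 20 to 24 in adult and 40 to 41 in embryo. Of all genes in the table, 10738 to 10832 did so per transplant library and 11609 to 12000 per teratoma library. The same count was 9495 to 9624 in adult and 10509 to 11434 in embryo. Gins2, Ccne2 and Rfc4 were listed at 0 in all 3 adult libraries, and Ccne2 and Rfc4 in all 3 transplant libraries. Rfc4, a clamp loader subunit, was the 1 gene that failed the expression filter: it was at 14.7 FPKM in embryo replicate 1 and listed at 0 in the other 11 libraries. The remaining 40 genes were tested.

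**Figure D1:**
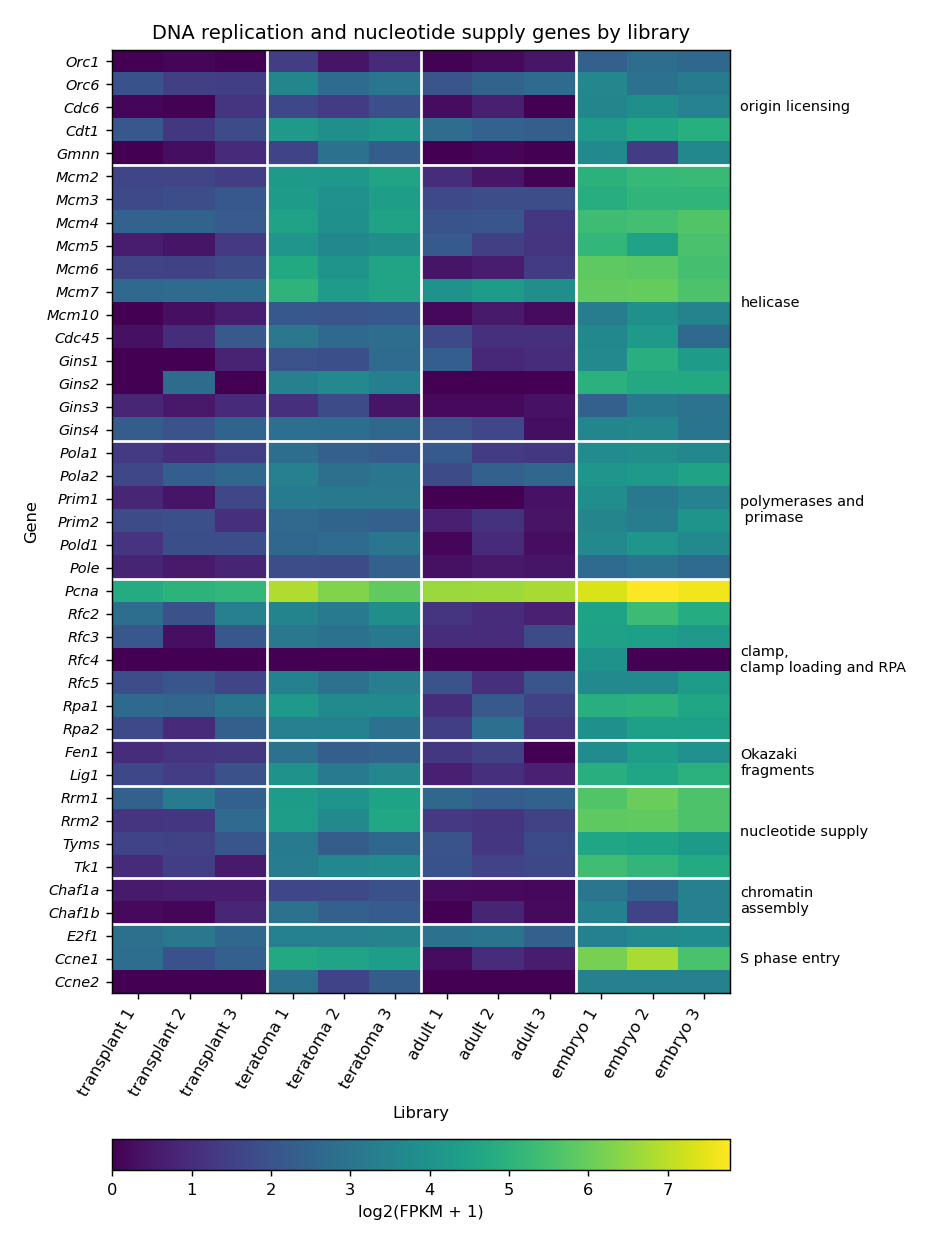
Level of each of the 41 genes (rows, grouped by step) in each of the 12 libraries (columns), as log2(FPKM + 1) on a colour scale with brighter colours for higher levels. Most rows are brightest in embryo, intermediate in teratoma and dark in transplant and adult; Pcna is bright in the 3 adult libraries, at 96.2, 98.4 and 108 FPKM.

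Set against embryo cells, all 40 tested genes fell in adult cells and all 40 fell in transplant cells. Among all genes tested, 36.9% were lower and 15.8% higher in adult, and 27.6% were lower and 14.9% higher in transplant, each against embryo. The median log2 change of the 40 genes was -2.99 in adult against embryo, where the median of all tested genes was -0.42, and -2.66 in transplant against embryo, where it was -0.24. No adult library and no transplant library reached the lowest embryo library for any of the 40 genes; of all tested genes, 40.1% were lower without overlap in adult and 32.8% in transplant. Transplant and adult share the embryo libraries as their counterpart here, so the 2 counts are not independent.

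Set against teratoma cells, transplant cells were lower in 36 of the 40 genes and higher in 0, at a median of -1.58 where all tested genes had -0.28. Of all tested genes, 18.5% were lower and 4.18% higher in transplant; libraries of the 2 groups did not overlap for 38 of the 40 genes, all lower, and for 32.2% (lower) and 9.37% (higher) of all tested genes. The 4 genes not called were Gins3, Gins4, Rfc2 and E2f1, with log2 changes of -0.34, -0.48, -0.80 and -0.59. Without transplant replicate 3 the median of the 40 genes was -1.84. It was -1.61 without transplant replicate 1 and -1.52 without transplant replicate 2. Teratoma cells in turn were lower than embryo cells in 29 genes and higher in 0, at a median of -1.21 where all tested genes had 0.01 and 10.6% were lower and 15.5% higher. For 34 of the 40 genes teratoma lay below embryo without overlap, as did 17.4% of all tested genes, while 20.0% lay above. As a share of the embryo mean, the median gene stood at 10.3% in transplant, 42.2% in teratoma and 6.38% in adult. The mean of embryo was the highest of the 4 for all 40 genes, and that of teratoma was second for 39. Pcna was the exception, with a higher mean in adult than in teratoma. The share of all tested genes with the same order of means was not taken.

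The authors' FPKM values carry a shift between groups that other scalings remove. With median-ratio scaling the median of all tested genes in adult against embryo moved to -0.04, and the calls over all genes moved to 3278 higher and 3307 lower, against 2007 higher and 4692 lower without it. The median of the replication genes was then -2.66. With the same scaling the calls over all genes moved to 923 higher and 1202 lower in transplant against teratoma, against 531 and 2343, and to 2549 higher and 2422 lower in transplant against embryo, against 1889 and 3505, with medians of the replication genes of -1.29 and -2.41. In adult against embryo the calls of 37 genes held in every alternative run, and the 3 that were lost in some were Orc6, E2f1 and Pcna, which had the smallest changes. Marker lists of other cell types moved between the groups as well. The 5 epithelial markers (Epcam, Krt8, Krt18, Cdh1 and Ttr) summed to at most 0.350 FPKM in transplant, 160 to 407 FPKM in teratoma, at most 0.668 FPKM in adult and 3.63 to 14.4 FPKM in embryo, with 5 of 5 at 1 FPKM or more in every teratoma library. The 7 erythroid markers summed to at most 0.904 FPKM in transplant, 2.80 to 23.9 FPKM in teratoma, at most 2.10 FPKM in adult and 160 to 1670 FPKM in embryo, with 2 to 4 of them listed at 0 in every library of a group outside embryo. The 6 leukocyte markers summed to 16.2 to 34.5 FPKM in transplant, 48.9 to 121 FPKM in teratoma, 7.55 to 15.9 FPKM in adult and 2.58 to 12.4 FPKM in embryo. The 6 fibroblast markers summed to 2459 to 4023 FPKM in transplant, 1154 to 2153 FPKM in teratoma, 590.2 to 844 FPKM in adult and 1200 to 1744 FPKM in embryo. Most of this sum was Col1a1, and the markers had unlike orders. Col1a1, Dcn and Lum were higher in transplant than in embryo, and Pdgfra overlapped. Twist2 was at 0 to 2.03 FPKM in transplant and 20.3 to 52.1 FPKM in embryo. Osr1 was at 8.75 to 11.4 FPKM in transplant and 22.3 to 29.3 FPKM in embryo. The 5 endothelial markers summed to 6.47 to 9.19 FPKM in transplant, 32.1 to 39.8 FPKM in teratoma, 12.5 to 17.7 FPKM in adult and 16.3 to 27.3 FPKM in embryo, and the 5 neural and Schwann cell markers to 1.58 to 7.74 FPKM in transplant, 3.68 to 6.11 FPKM in teratoma, 23.3 to 37.6 FPKM in adult and 7.22 to 23.4 FPKM in embryo. The 4 cartilage markers summed to 41.1 to 50.6 FPKM in transplant, 85.6 to 95.1 FPKM in teratoma, 28.9 to 34.4 FPKM in adult and 45.4 to 79.4 FPKM in embryo. Among them Col2a1, the main cartilage collagen, was at 0.140, 0.400 and 0.473 FPKM in transplant and 30.1, 14.2 and 38.6 FPKM in teratoma. Col2a1 was at 0, 0.0618 and 0.283 FPKM in adult and 32.1, 44.8 and 58.3 FPKM in embryo, high in the same 2 groups as the replication genes. Sox9 had another order, lowest in embryo at 9.52, 6.94 and 14.7 FPKM. It was at 39.1, 45.8 and 48.9 FPKM in transplant, 57.2, 68.7 and 48.7 FPKM in teratoma and 34.4, 28.8 and 29.7 FPKM in adult. For Acan, transplant and embryo libraries overlapped. Matn1 was listed at 0 in every transplant and adult library, and also in teratoma replicate 2. The part of such cells in the replication gene levels was not tested.

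Promoters are shown for 4 genes that the results below turn on. RefSeq windows on the build GRCm38.p6, each covering 300 bases around a gene's start, were on hand for 32 of the 41 genes. Shown are Mcm6 (chr1:128359656-128359955, minus strand), which had the largest fall among the helicase genes, Mcm7 (the first of its 2 windows, chr5:138171834-138172133, minus strand), which had the smallest, Ccne1 (chr7:38107441-38107740, minus strand), which had the largest fall of all, and Pcna (chr2:132253131-132253430, minus strand), whose level in adult cells remained high. Capitals mark matches to TTTNNCGC, an E2F-type motif, on either strand, where overlapping matches were counted singly.
Mcm6: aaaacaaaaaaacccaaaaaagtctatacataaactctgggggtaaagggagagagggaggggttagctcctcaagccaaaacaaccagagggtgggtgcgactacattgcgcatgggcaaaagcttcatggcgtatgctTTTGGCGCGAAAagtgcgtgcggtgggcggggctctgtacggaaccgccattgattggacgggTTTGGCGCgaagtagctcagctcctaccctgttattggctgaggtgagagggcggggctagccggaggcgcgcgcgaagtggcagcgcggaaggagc
Mcm7: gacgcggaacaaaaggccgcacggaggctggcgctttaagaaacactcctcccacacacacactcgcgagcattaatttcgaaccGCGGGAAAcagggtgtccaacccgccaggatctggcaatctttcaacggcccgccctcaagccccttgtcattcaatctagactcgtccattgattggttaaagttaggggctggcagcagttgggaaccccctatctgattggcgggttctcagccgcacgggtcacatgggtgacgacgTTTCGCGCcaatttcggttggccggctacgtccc
Ccne1: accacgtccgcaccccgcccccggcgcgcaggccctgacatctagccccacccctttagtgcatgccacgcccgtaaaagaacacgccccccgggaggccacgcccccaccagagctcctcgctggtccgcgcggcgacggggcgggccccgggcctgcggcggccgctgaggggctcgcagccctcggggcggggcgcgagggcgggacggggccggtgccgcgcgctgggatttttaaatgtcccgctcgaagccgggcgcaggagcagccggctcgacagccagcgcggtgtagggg
Pcna: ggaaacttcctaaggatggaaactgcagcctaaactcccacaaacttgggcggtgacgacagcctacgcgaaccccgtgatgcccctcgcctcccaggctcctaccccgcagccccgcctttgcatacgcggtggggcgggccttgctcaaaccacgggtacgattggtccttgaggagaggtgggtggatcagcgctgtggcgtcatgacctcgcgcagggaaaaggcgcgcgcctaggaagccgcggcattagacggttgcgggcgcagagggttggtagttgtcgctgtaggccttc
The Mcm6 window held 3 matches, of which a pair overlaps head to head, and the Mcm7 window held 2. The Ccne1 and Pcna windows held 0. At least 1 match was found for 13 of the 32 genes (40.6%), and for 7.32% of the 15707 genes with such a window. The CCAAT box, searched as CCAAT on both strands, was found for 59.4% of the replication genes and 42.4% of all genes, and the CHR element, searched as TTTGAA on both strands, for 12.5% and 17.7%. In adult against embryo the 13 genes with the E2F-type motif had a median log2 change of -3.09, and the 18 tested genes without it -2.93. A match is a description of letters in these windows and not a site.

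Origin licensing genes fell in adult and transplant cells by unequal amounts. Cdc6 (chromosome 11 from 98907801 to 98923940, plus strand, in GENCODE M21 on the build mm10, as for all genes here), which helps to load the helicase, was at 0.0980, 0.0348 and 1.27 FPKM in the transplant libraries, 2.2, 1.60 and 2.74 FPKM in teratoma, 0.205, 0.592 and 0 FPKM in adult and 11, 13.7 and 10.0 FPKM in embryo. It was under 1 FPKM in 2 transplant libraries and in all adult libraries, and embryo stood apart from every other group. The log2 change was -3.33 (SE 0.33, adjusted p = 5.48e-06) in adult against embryo and -1.20 (SE 0.33, adjusted p = 0.0219) in transplant against teratoma, where the call was lost in 8 of 13 alternatives. Cdt1 (chromosome 8 from 122568015 to 122573554, plus strand), the second loader, had 3.39, 1.38 and 2.51 FPKM in transplant, 17.3, 13.7 and 16.0 FPKM in teratoma, 5.86, 4.48 and 3.99 FPKM in adult and 17.3, 22.6 and 28.5 FPKM in embryo. Its transcript remained detectable in every library, and its log2 change was -2.03 in adult against embryo and -2.32 in transplant against teratoma (adjusted p = 4e-05 and 0.000123). Gmnn, which encodes the Cdt1 inhibitor geminin, was at 0, 0.232 and 0.915 FPKM in transplant, 1.95, 6.57 and 3.94 FPKM in teratoma, 0, 0.108 and 0 FPKM in adult and 12.2, 1.58 and 11.5 FPKM in embryo. Embryo replicate 2 lay below all 3 teratoma libraries, and no adult library was above 0.108 FPKM.

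The 2 subunits of the origin recognition complex were unlike in level. Orc6 (chromosome 8 from 85299632 to 85308278, plus strand), the smallest subunit, was at 2.90, 1.79 and 1.69 FPKM in transplant, 10.9, 5.60 and 7.23 FPKM in teratoma, 3.19, 4.56 and 5.56 FPKM in adult and 11.2, 6.50 and 7.99 FPKM in embryo. Teratoma and embryo libraries overlapped, and adult libraries lay just below the embryo range. The log2 change in adult against embryo was the smallest of the 40 genes, -0.81 (SE 0.29, adjusted p = 0.0333), and its call was lost in 8 of 14 alternatives, among them median-ratio scaling; the change in transplant against teratoma was -1.49 (adjusted p = 0.00376). Orc1, the largest subunit, was at 0, 0.0715 and 0 FPKM in transplant, 1.64, 0.348 and 0.900 FPKM in teratoma, 0.0363, 0.141 and 0.379 FPKM in adult and 4.19, 6.10 and 5.22 FPKM in embryo, so that only the embryo libraries exceeded 2 FPKM. Its log2 change was -2.38 in adult against embryo and -0.89 in transplant against teratoma (adjusted p = 1.87e-05 and 0.0365). The call of Orc1 in transplant against teratoma was lost in 10 of 13 alternatives, over which the change ran from -2.94 to -0.45.

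The 12 helicase genes together summed to 21.8 to 28.8 FPKM in transplant, 122 to 161 FPKM in teratoma, 23.4 to 34.6 FPKM in adult and 328 to 354 FPKM in embryo cells. Mcm6 (chromosome 1 from 128331590 to 128359664, minus strand) was at 2.05, 1.93 and 2.47 FPKM in transplant, 25.3, 15.3 and 22.3 FPKM in teratoma, 0.351, 0.539 and 1.57 FPKM in adult and 57.4, 54.9 and 43.6 FPKM in embryo. The groups formed separate levels with no overlap, transplant a little above adult. Mcm6 had log2 changes of -4.91 in adult against embryo (SE 0.27, adjusted p = 6.47e-08) and -2.78 in transplant against teratoma (SE 0.27, adjusted p = 4.63e-05). Mcm7 (chromosome 5 from 138164583 to 138172422, minus strand), a subunit of the same ring, was at 5.31, 5.61 and 5.80 FPKM in transplant, 32.4, 18.2 and 22.4 FPKM in teratoma, 14.7, 18.5 and 13.7 FPKM in adult and 59.0, 60.1 and 47.6 FPKM in embryo. Adult and teratoma libraries overlapped, and every transplant library lay below every adult library. The log2 change in adult against embryo was -1.77 (SE 0.21, adjusted p = 2.14e-05), the smallest of the step, while that in transplant against teratoma was -1.91 (SE 0.21, adjusted p = 0.000112). Mcm7 overlaps Ap4m1 and Cops6 on the opposite strand, hosts the microRNAs Mir25, Mir93 and Mir106b, which were listed at 0 in all libraries, and is 97.7% identical over 2157 bases to the pseudogene Gm5487, so its level is uncertain where reads were split between copies.

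The falls of the other ring subunits in adult against embryo lay between those of Mcm7 and Mcm6. Mcm2 was at 2.11, 2.10 and 1.68 FPKM in transplant, 17.5, 16.9 and 22.5 FPKM in teratoma, 1.02, 0.376 and 0.0347 FPKM in adult and 31.0, 36.4 and 37.2 FPKM in embryo. Its log2 change in adult against embryo was -4.65 (adjusted p = 5.76e-08), next to that of Mcm6. Mcm5 was at 0.506, 0.358 and 1.45 FPKM in transplant, 15.8, 11.4 and 13.4 FPKM in teratoma, 3.59, 1.8 and 1.30 FPKM in adult and 34.6, 21.6 and 46.1 FPKM in embryo, and its log2 change of -3.07 in transplant against teratoma was the largest fall of the 40 genes (SE 0.34, adjusted p = 0.000122). Mcm3 averaged 2.78 ± 0.546 FPKM in transplant, 17.4 ± 2.68 FPKM in teratoma, 2.52 ± 0.223 FPKM in adult and 31.4 ± 2.96 FPKM in embryo (SD, n = 3 each). Mcm4 averaged 4.25 ± 0.461 FPKM in transplant, 18.9 ± 4.31 FPKM in teratoma, 2.55 ± 1.00 FPKM in adult and 44.5 ± 4.88 FPKM in embryo (SD, n = 3 each). Neither subunit differed between transplant and adult beyond the test's threshold.

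Since FPKM is per length, the 6 subunits of the ring can be set side by side within a library. The gap between the highest and the lowest subunit, on the log2(FPKM + 1) scale, was 1.94 ± 0.42 in transplant, 0.78 ± 0.19 in teratoma, 3.73 ± 0.17 in adult and 1.02 ± 0.42 in embryo (SD, n = 3 each). Adult libraries had a wider gap than all others, from 3.54 to 3.83, and Mcm7 was the highest subunit in all 3 adult and all 3 transplant libraries. The lowest was Mcm6 or Mcm2 in adult and Mcm5 in transplant. In adult, Mcm7 was at 14.7, 18.5 and 13.7 FPKM, and no other subunit exceeded 3.59 FPKM. The wide gap in adult thus rests in part on Mcm7, whose level is uncertain, as given above, where reads were split between copies. The other subunits were also unequal in adult. They ran from 0.351 (Mcm6) to 3.59 FPKM (Mcm5) in replicate 1 and from 0.376 (Mcm2) to 3.18 FPKM (Mcm4) in replicate 2. In replicate 3 they ran from 0.0347 (Mcm2) to 2.66 FPKM (Mcm3). A gap without Mcm7 was not taken. The exact two-sided permutation test over 3 against 3 libraries gave p = 0.1 for adult against embryo and for transplant against teratoma, the smallest it can give, and 0.218 after adjustment over 24 such tests. With a pseudocount of 0.1 FPKM the gap was 5.67 in adult and 2.91 in transplant.

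The factors that activate the helicase were low in adult cells, at 4.02 FPKM or less. Gins2 was at 0, 5.76 and 0 FPKM in transplant, 9.53, 11.7 and 9.27 FPKM in teratoma, and 30.1, 25.1 and 25.5 FPKM in embryo, and was listed at 0 in the 3 adult libraries. The transplant level rests on replicate 2: the log2 change of Gins2 in transplant against teratoma was -2.56 with it and -3.48 without it. The log2 change in adult against embryo was -4.80 (SE 0.56, adjusted p = 2.22e-05), and the gene overlaps Gse1 on the opposite strand over 2758 bases. Gins3 and Gins4 were the helicase genes without a call in transplant against teratoma. Gins3 was at 0.779, 0.447 and 0.918 FPKM in transplant, 1.13, 2.47 and 0.351 FPKM in teratoma, 0.141, 0.142 and 0.311 FPKM in adult and 4.27, 7.91 and 6.83 FPKM in embryo, with transplant and teratoma overlapping. Gins4 transcripts were at 3.96, 2.99 and 4.72 FPKM in transplant, 6.23, 6.01 and 5.06 FPKM in teratoma, 2.99, 2.17 and 0.225 FPKM in adult and 10.9, 11.4 and 7.19 FPKM in embryo, with transplant just below teratoma. Gins1 was at 0, 0 and 0.661 FPKM in transplant, 3.02, 2.76 and 5.53 FPKM in teratoma, 4.02, 0.813 and 0.975 FPKM in adult and 11.8, 29.0 and 18.8 FPKM in embryo. Adult replicate 1 exceeded 2 of the teratoma libraries for this subunit. The initiation factor Mcm10 had log2 changes of -3.25 in adult against embryo and -1.81 in transplant against teratoma, and Cdc45, the partner of GINS at the helicase, had -2.21 and -1.66 in these 2 comparisons (adjusted p at most 0.0240). The call of Cdc45 in transplant against teratoma was lost in 6 of 14 alternatives.

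All 6 polymerase and primase genes fell in adult against embryo and in transplant against teratoma. In the transplant comparison the call was lost in 11 of 13 alternatives for Prim2, in 9 of 14 for Pola2 and in 3 of 14 for Pold1. Pold1 (chromosome 7 from 44532746 to 44548849, minus strand), the catalytic subunit of polymerase delta, was at 1.30, 2.66 and 2.65 FPKM in transplant, 5.12, 5.65 and 7.37 FPKM in teratoma, 0.0830, 0.951 and 0.212 FPKM in adult and 11.8, 15.5 and 12 FPKM in embryo. No adult library reached 1 FPKM, and the 4 groups did not overlap. Pola2 (chromosome 19 from 5940542 to 5964202, minus strand), an accessory subunit of polymerase alpha, was at 2.12, 3.99 and 5.22 FPKM in transplant, 9.59, 6.34 and 7.23 FPKM in teratoma, 2.54, 4.22 and 4.88 FPKM in adult and 16.2, 17.1 and 21.2 FPKM in embryo. Transplant and adult overlapped for this gene and stayed above 2 FPKM. The log2 change in adult against embryo was -3.36 for Pold1 (SE 0.29, adjusted p = 1.84e-06) and -2.0 for Pola2 (SE 0.29, adjusted p = 0.000103), the largest and the smallest of the step. Prim1, the catalytic primase subunit, was at 0.801, 0.352 and 2.18 FPKM in transplant, 8.09, 7.81 and 7.66 FPKM in teratoma, 0, 0 and 0.306 FPKM in adult and 13, 7.68 and 10.0 FPKM in embryo. Teratoma and embryo overlapped for Prim1, and the change between them was -0.32 (adjusted p = 0.494), while that in transplant against teratoma was -2.16 (adjusted p = 0.000665). Prim2, Pola1 and Pole, for the large primase subunit and the catalytic subunits of polymerases alpha and epsilon, all fell, with log2 changes of -2.87, -2.13 and -2.37 in adult against embryo and -0.94, -1.22 and -1.30 in transplant against teratoma.

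Pcna was the most abundant of the 41 genes in every library, and its level differed between the 2 muscle-resident groups. Pcna (chromosome 2 from 132249162 to 132253314, minus strand), which encodes the sliding clamp used in replication and in DNA repair, was at 26.5, 31.8 and 35 FPKM in transplant, 115, 79.0 and 58.4 FPKM in teratoma, 96.2, 98.4 and 108 FPKM in adult and 161, 219.7 and 198 FPKM in embryo. Transplant libraries lay below all others, and adult libraries lay within the teratoma range. Its log2 change was -0.92 in adult against embryo (SE 0.22, adjusted p = 0.00377), a call lost with median-ratio scaling (log2 change -0.38, adjusted p = 0.110), and -1.36 in transplant against teratoma (SE 0.22, adjusted p = 0.00121). Pcna alone made up 24.6% to 28% of the summed level of the 41 genes in transplant, 13.2% to 21.7% in teratoma, 54.2% to 61.7% in adult and 15.4% to 18.9% in embryo. Without Pcna the sum was 81.4 to 104 FPKM in transplant and 66.8 to 83.2 FPKM in adult, and the ranges overlapped; without Pcna and Mcm7 it was 76.1 to 97.9 FPKM in transplant and 53.0 to 65.7 FPKM in adult. The order of the 2 groups in the total thus turned on Pcna. The processed pseudogene Pcna-ps2 is 99.2% identical to the transcript over 781 bases, and how reads were shared with it is not given in the sources used here.

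**Figure D2:**
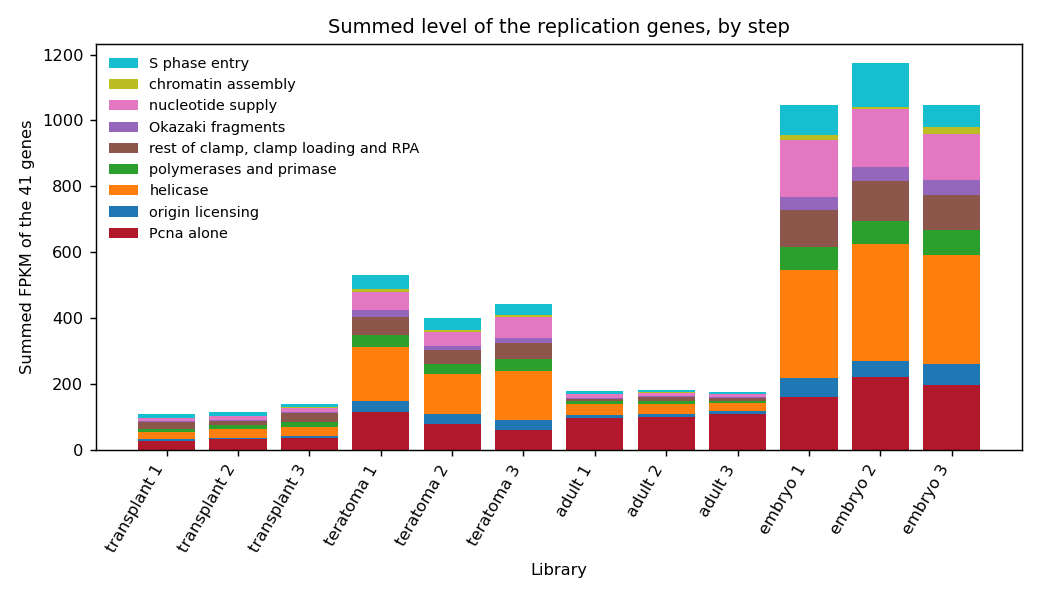
Summed FPKM of the 41 genes in each library, stacked by step with Pcna drawn alone at the bottom of each bar (vertical axis in FPKM, starting at 0). Pcna takes 54.2% to 61.7% of the bar in the 3 adult libraries and at most 28% in the other 9.

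The tested clamp loader and RPA genes fell more than Pcna in adult against embryo. Rfc2 (chromosome 5 from 134581366 to 134601805, plus strand), a clamp loader subunit, was at 6.10, 2.83 and 9.52 FPKM in transplant, 10.3, 8.19 and 13.6 FPKM in teratoma, 1.26, 0.979 and 0.636 FPKM in adult and 21.9, 39.6 and 27.1 FPKM in embryo. Transplant libraries were spread into the teratoma range, and adult libraries lay below all of them. The log2 change of Rfc2 was -3.93 in adult against embryo (SE 0.35, adjusted p = 2.43e-06), and that in transplant against teratoma was -0.80 (SE 0.35, adjusted p = 0.119). It overlaps Lat2 on the opposite strand, a gene at no more than 1.55 FPKM in any library. Rpa1, the large subunit of the complex that coats single-stranded DNA, was at 5.35, 4.97 and 6.94 FPKM in transplant, 17.4, 12 and 12.2 FPKM in teratoma, 1.02, 3.49 and 1.87 FPKM in adult and 28.6, 30.8 and 23.3 FPKM in embryo, with no overlap between the 4 groups. Rfc3, Rfc5 and Rpa2 fell, with log2 changes of -3.09, -2.20 and -2.40 in adult against embryo and -1.54, -1.36 and -1.56 in transplant against teratoma, and for these 3 genes transplant and adult libraries overlapped. In transplant against teratoma the calls of Rfc3 and Rpa2 were each lost in 6 of 14 alternatives, and that of Rpa1 in 2.

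The genes that finish Okazaki fragments fell in both comparisons. Lig1 (chromosome 7 from 13277283 to 13311433, plus strand), the ligase that seals the fragments, was at 2.19, 1.64 and 2.85 FPKM in transplant, 15.0, 8.43 and 11.1 FPKM in teratoma, 0.620, 1.11 and 0.652 FPKM in adult and 28.9, 22.8 and 30.6 FPKM in embryo. Its log2 change was -3.99 in adult against embryo (SE 0.25, adjusted p = 1.72e-07) and -1.94 in transplant against teratoma (SE 0.25, adjusted p = 0.000308). The groups formed separate levels, with every transplant library above every adult one. Fen1 (chromosome 19 from 10199132 to 10204169, minus strand), the flap endonuclease that trims the fragments, was at 0.982, 1.24 and 1.41 FPKM in transplant, 6.48, 4.10 and 4.53 FPKM in teratoma, 1.38, 1.90 and 0 FPKM in adult and 12.4, 19.1 and 14.4 FPKM in embryo. Transplant and adult overlapped, and the gene shares 1911 bases with the antisense gene Gm10143, so without strand information its level is uncertain. Fen1 fell in adult against embryo and in transplant against teratoma, with log2 changes of -3.08 and -1.43 (adjusted p = 2.05e-05 and 0.0141), and its call in transplant against teratoma was lost in 5 of 14 alternatives.

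Nucleotide supply genes fell as a group, and the subunits of ribonucleotide reductase fell unequally. Rrm2 (chromosome 12 from 24708241 to 24714146, plus strand), the small subunit that is made in S phase, was at 1.23, 1.35 and 5.67 FPKM in transplant, 19.4, 12.2 and 24.2 FPKM in teratoma, 1.44, 1.28 and 1.88 FPKM in adult and 57.2, 58.7 and 48.2 FPKM in embryo. Transplant replicate 3 lay above the other 5 transplant and adult libraries. Rrm1 (chromosome 7 from 102441695 to 102469771, plus strand), the large subunit, was at 4.32, 8.45 and 4.34 FPKM in transplant, 18.8, 15.4 and 21.7 FPKM in teratoma, 5.23, 4.05 and 4.38 FPKM in adult and 50.5, 62.9 and 47.4 FPKM in embryo. Its lowest value was 4.05 FPKM, and transplant and adult overlapped. The log2 change in adult against embryo was -4.46 for Rrm2 and -3.29 for Rrm1 (SE 0.38 and 0.24, adjusted p = 1.62e-06 and 5.01e-07). The difference Rrm2 minus Rrm1 on the log2(FPKM + 1) scale averaged -0.98 ± 1.19 in transplant, -0.04 ± 0.25 in teratoma, -1.14 ± 0.23 in adult and 0.03 ± 0.14 in embryo (SD, n = 3 each); adult and embryo libraries did not overlap (exact p = 0.1, the smallest possible), whereas the transplant libraries ran from -2.01 to 0.32.

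The other 2 nucleotide genes fell as well. Tyms (chromosome 5 from 30058202 to 30073617, minus strand), which encodes thymidylate synthase, was at 1.94, 1.89 and 3.21 FPKM in transplant, 8.38, 3.90 and 5.04 FPKM in teratoma, 2.96, 1.35 and 2.34 FPKM in adult and 23.1, 22.0 and 18 FPKM in embryo. Tk1, which encodes the thymidine kinase of S phase, was at 0.955, 1.75 and 0.484 FPKM in transplant, 8.81, 11.5 and 12.8 FPKM in teratoma, 2.93, 1.93 and 2.2 FPKM in adult and 40.9, 33.9 and 26.2 FPKM in embryo. Tyms overlapped between transplant and adult, whereas every transplant library lay below every adult library for Tk1. The log2 changes of Tyms were -2.80 in adult against embryo and -0.99 in transplant against teratoma, and those of Tk1 -3.36 and -2.57 (adjusted p at most 0.0297). The call of Tyms in transplant against teratoma was lost in 8 of 14 alternatives. A stretch of the Tyms transcript is shared with other genes, and the pseudogene Gm48455 is 95.5% identical to Rrm2 over 419 bases.

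Chaf1a and Chaf1b, subunits of CAF-1, which deposits histones behind the fork, were low outside embryo and teratoma. Chaf1a (chromosome 17 from 56040439 to 56072289, plus strand) was at 0.486, 0.514 and 0.549 FPKM in transplant, 2.15, 2.26 and 2.79 FPKM in teratoma, 0.159, 0.153 and 0.112 FPKM in adult and 7.40, 4.54 and 9.49 FPKM in embryo. Chaf1b (chromosome 16 from 93883901 to 93906115, plus strand) was at 0.140, 0.0719 and 0.779 FPKM in transplant, 6.60, 4.27 and 3.82 FPKM in teratoma, 0, 0.750 and 0.139 FPKM in adult and 9.73, 2.01 and 9.64 FPKM in embryo. No transplant or adult library reached 1 FPKM for either subunit, and embryo replicate 2 was the lowest of its group for both. The log2 changes in adult against embryo were -2.79 for Chaf1a and -2.48 for Chaf1b (SE 0.25 and 0.46, adjusted p = 2.98e-06 and 0.000711). Chaf1a overlaps Ubxn6 on the opposite strand, which ran from 1.25 to 9.16 FPKM.

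The 3 regulators of S phase entry changed by unequal amounts. Ccne1 (chromosome 7 from 38097984 to 38107534, minus strand), which encodes cyclin E1, the partner of the kinase Cdk2 at S phase entry, was at 6.07, 2.94 and 4.25 FPKM in transplant, 25.7, 22.4 and 19.0 FPKM in teratoma, 0.188, 0.975 and 0.510 FPKM in adult and 71.6, 110.2 and 45.5 FPKM in embryo. The 4 groups did not overlap, no adult library reached 1 FPKM, and all transplant libraries were above 2 FPKM. Its log2 change in adult against embryo, -5.56 (SE 0.32, adjusted p = 1.06e-07), was the largest fall of the 40 genes, and that in transplant against teratoma was -2.14 (SE 0.32, adjusted p = 0.000831). Ccne2, for cyclin E2, was listed at 0 in all transplant and all adult libraries, against 6.69, 1.97 and 3.95 FPKM in teratoma and 9.59, 9.69 and 9.50 FPKM in embryo. The gene overlaps Ints8 on the opposite strand over 5622 bases, and Ints8 ran from 3.98 to 12.5 FPKM. Without strand information the level of Ccne2, with its listed values of 0, is uncertain. E2f1 (chromosome 2 from 154559407 to 154569892, minus strand), a transcription factor that activates replication genes, was at 6.32, 7.43 and 5.11 FPKM in transplant, 9.78, 9.59 and 10.2 FPKM in teratoma, 6.56, 6.92 and 4.24 FPKM in adult and 9.72, 11.9 and 12.7 FPKM in embryo. E2f1 was the gene with the highest share of the embryo level in transplant, 54.9%, and teratoma overlapped with embryo. The log2 changes of E2f1 were -0.87 in adult against embryo (SE 0.21, adjusted p = 0.00413) and -0.59 in transplant against teratoma (SE 0.21, adjusted p = 0.0645); median-ratio scaling and quantile normalization each removed the call in adult against embryo.

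**Figure D3:**
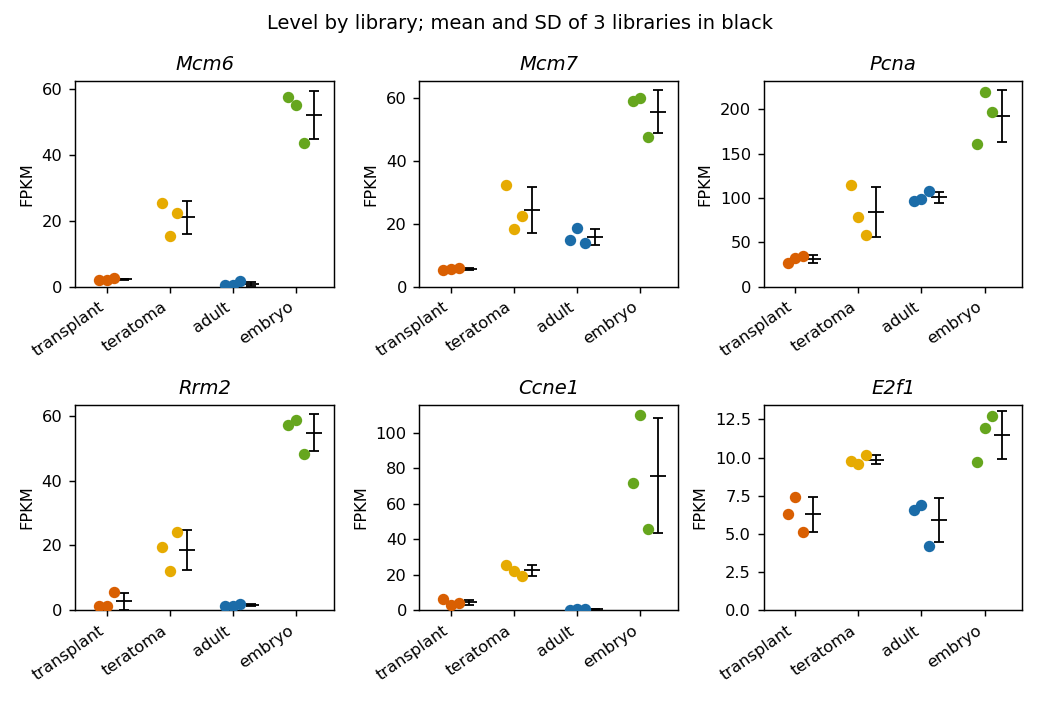
FPKM of Mcm6, Mcm7, Pcna, Rrm2, Ccne1 and E2f1 in the 3 libraries of each group (coloured points; axes start at 0), with the group mean and SD as a black bar. Adult points lie near 0 for Mcm6, Rrm2 and Ccne1, within the teratoma range for Pcna at 96.2, 98.4 and 108 FPKM, and beside the transplant points for E2f1.

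Teratoma cells held part of the embryonic level of the replication genes. The 29 genes that were lower than in embryo, a direction called for 10.6% of all tested genes against 15.5% for higher, comprised all 4 nucleotide supply genes, both Okazaki fragment genes, 9 of 12 helicase genes, 5 of 6 polymerase and primase genes, 4 of 6 clamp and single-strand binding genes, 2 of 3 genes of S phase entry, 1 of 2 chromatin assembly genes and 2 of 5 licensing genes. The median share of the embryo mean was 49.4% for licensing, 41.4% for the helicase, 44.3% for polymerases and primase, 45.6% for clamp and single-strand binding and 33.4% for nucleotide supply. The largest falls were those of Gins1 (-2.09), Cdc6 (-1.99), Tyms (-1.75) and Gins3 (-1.73). The 11 genes not called were Orc6, Cdt1, Gmnn, Cdc45, Gins2, Gins4, Prim1, Rfc5, Rpa2, Chaf1b and E2f1, with changes from -1.32 (Gins2) to -0.12 (Orc6). A change that missed the threshold does not show that the levels were equal, and the count of 29 fell to 17 with a pseudocount of 0.1 FPKM and to 19 without teratoma replicate 2.

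Against adult cells, 35 genes were higher in teratoma and 0 were lower, at a median of 1.79 where all tested genes had 0.50; of all tested genes, 36.4% were higher and 8.94% lower in teratoma. The calls over all genes, 4628 higher and 1135 lower, moved to 2923 higher and 2590 lower with median-ratio scaling and to 2285 higher and 2411 lower with quantile normalization, where the median of the replication genes was 1.38 and 1.08 and that of all tested genes 0.12 and -0.05. The largest rises were those of Ccne1 (3.93), Mcm2 (3.80), Mcm6 (3.62) and Gins2 (3.48). Orc1, Orc6, Gins1, Gins3 and Pcna were not called, and Pcna had the 1 negative change, -0.31 (SE 0.22, adjusted p = 0.27). With median-ratio scaling, and also without teratoma replicate 1, Pcna was called lower in teratoma than in adult (log2 changes -0.84 and -0.56).

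Between the 2 muscle-resident groups the replication genes did not move together. In transplant against adult, 9 genes were higher (Mcm2, Mcm6, Prim1, Prim2, Pold1, Rfc2, Rpa1, Lig1 and Ccne1), 5 were lower (Orc6, Cdt1, Mcm7, Pcna and Tk1) and 26 were not called. Of all tested genes, 27.3% were higher and 16.9% lower in transplant, and the median change was 0.18 for the replication genes and 0.23 for all tested genes. Both 9 of 40 and 5 of 40 are below these background shares. The largest rises were those of Ccne1 (1.79, SE 0.32, adjusted p = 0.000892) and Rfc2 (1.76, SE 0.35, adjusted p = 0.00161), followed by Pold1 (1.20) and Rpa1 (1.18). The largest falls were those of Pcna (-1.67, SE 0.22, adjusted p = 0.000107) and Mcm7 (-1.33, SE 0.21, adjusted p = 0.000335). Ccne1, Rfc2, Rpa1, Pcna and Mcm7 kept their calls in all 14 alternatives run for them, and the other 9 genes lost theirs in 1 to 8. Over all tested genes quantile normalization gave 2519 higher and 2721 lower, against 3462 and 2150. For the replication genes the split turned to 3 higher and 8 lower and the median to -0.15, so the balance of directions depends on the scaling.

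The size of the fall differed between the stem-cell-derived and the native pair for 22 of the 40 genes. This was tested as the transplant minus teratoma change set against the adult minus embryo change, which share no libraries. The difference was positive, meaning a smaller fall in transplant against teratoma, for these 22 genes and negative for 0, at a median of 1.47 where all tested genes had 0.20; of all tested genes, 21.7% were called positive and 17.2% negative. Ccne1 had the largest difference, 3.42 (SE 0.46, adjusted p = 0.000175), from changes of -2.14 and -5.56. Rfc2 followed with 3.13 (SE 0.49, adjusted p = 0.000521), then Gins3, Gins2 and Pold1 with 2.24, 2.24 and 2.2. Of these, Gins3 and Pold1 kept the call in every alternative run, whereas that of Gins2 was lost in 11 of 19, with differences from 1.32 (without transplant replicate 2) to 3.35. Of the helicase genes 8 of 12 were called, of the nucleotide supply genes 3 of 4, of the licensing genes 2 of 5 and of the clamp and single-strand binding genes 2 of 6. Orc6, Cdt1, Mcm7 and Pcna had negative differences, of -0.68, -0.29, -0.14 and -0.44, none of which was called. The 2 falls start from different levels, since the median gene was at 42.2% of the embryo mean in teratoma. By arithmetic the difference equals the change in transplant against adult minus the change in teratoma against embryo. The medians of these 2 changes over the 40 genes were 0.18 and -1.21. The 22 calls are therefore not separate from the lower teratoma levels given above.

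**Figure D4:**
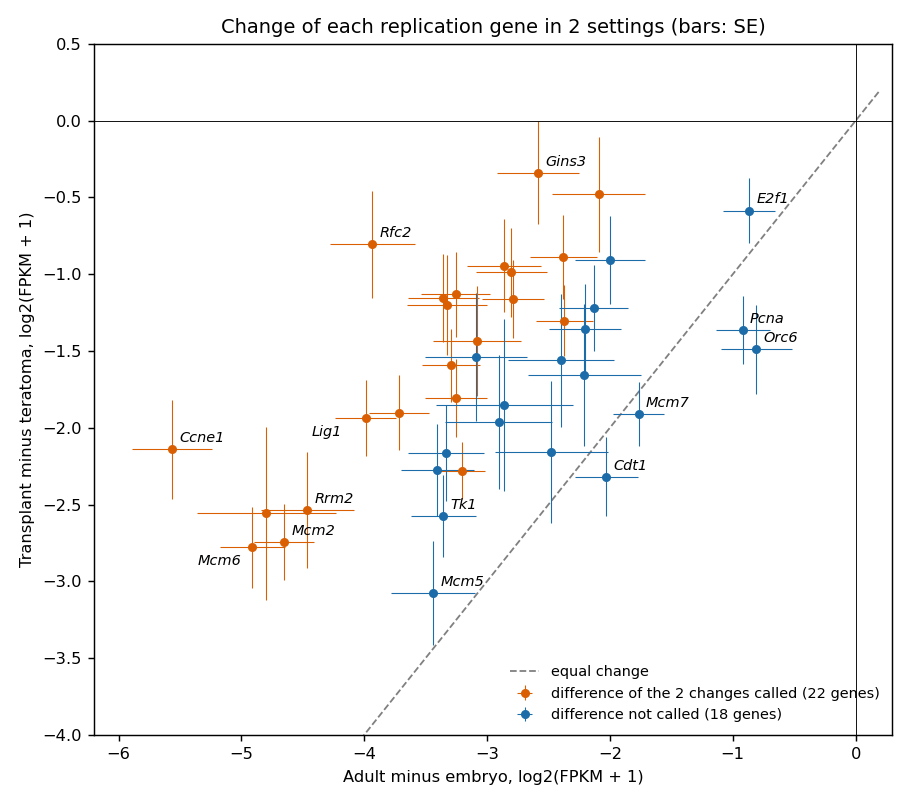
Log2 change of each of the 40 tested genes in adult against embryo (horizontal) and in transplant against teratoma (vertical), each on the log2(FPKM + 1) scale with SE bars; the dashed line marks equal changes. Orange points are the 22 genes whose 2 changes differed at an adjusted p under 0.05, all above the line, with Ccne1 and Rfc2 farthest from it, and Pcna, Orc6, Mcm7 and Cdt1 lie below it.

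Differences between paired genes were also set side by side. For the cyclin E paralogues, Ccne1 minus Ccne2 on the log2(FPKM + 1) scale averaged 2.40 ± 0.42 in transplant, 2.26 ± 0.63 in teratoma, 0.61 ± 0.37 in adult and 2.77 ± 0.62 in embryo (SD, n = 3 each). Ccne2 is listed at 0 in transplant and adult, so there the difference is the level of Ccne1 alone. Cdt1 minus Gmnn averaged 1.32 ± 0.71 in transplant, 1.79 ± 0.84 in teratoma, 2.47 ± 0.27 in adult and 1.64 ± 1.40 in embryo. The groups overlapped for this measure except transplant and adult (exact two-sided permutation p = 0.1, 0.218 after adjustment over the 24 tests).

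A wider list of 72 replication pathway genes gave 71 tested genes, and 1 listed symbol was not matched. This list too was chosen with earlier results of these data known, so its counts are not separate support. In adult against embryo 57 were lower and 2 higher, where all tested genes were 36.9% lower and 15.8% higher. In transplant against embryo 58 were lower and 4 higher, beside 27.6% and 14.9% of all tested genes. In transplant against teratoma 34 were lower, 1 was higher and 36 were not called, beside 18.5% lower and 4.18% higher of all tested genes. In teratoma against embryo 27 were lower, 2 were higher and 42 were not called, beside 10.6% lower and 15.5% higher of all tested genes. The medians were -1.70, -1.62, -0.87 and -0.72 in these 4 comparisons. Pold2, the second subunit of polymerase delta, was listed at 0 in all 6 transplant and adult libraries, against 12.2, 12.6 and 14.1 FPKM in teratoma and 30.5, 35.1 and 23.7 FPKM in embryo. Uhrf1, which helps to copy DNA methylation marks at the fork, had log2 changes of -4.52 in adult against embryo and -2.70 in transplant against teratoma. Dut, which removes dUTP from the nucleotide pool, fell by 4.28 in adult against embryo and was higher in transplant than in adult by 1.90 (adjusted p = 0.0011).

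Few genes of the wider list were higher where most were lower. Top1, the topoisomerase that relieves supercoils in replication and transcription, was at 14.7, 21.6 and 23.4 FPKM in transplant, 47.0, 36.8 and 35.7 FPKM in teratoma, 149.6, 135 and 169 FPKM in adult and 24.9, 28.2 and 36.7 FPKM in embryo. All adult libraries stood above all others, and the log2 change was 2.31 in adult against embryo (SE 0.20, adjusted p = 2.33e-06) and -2.89 in transplant against adult (SE 0.20, adjusted p = 2.19e-06). Pold4, the smallest polymerase delta subunit, was at 25.0, 18.4 and 17.2 FPKM in transplant, 8.03, 16.8 and 11.1 FPKM in teratoma, 15.1, 11.2 and 22.9 FPKM in adult and 1.75, 4.04 and 3.17 FPKM in embryo. It was lowest in embryo, opposite to Pold1 and Pold2, with rises of 2.12 in adult, 2.44 in transplant and 1.69 in teratoma against embryo (adjusted p at most 0.00243). Tk2, the mitochondrial thymidine kinase, was at 4.44, 4.54 and 3.59 FPKM in transplant, 0.958, 1.46 and 1.88 FPKM in teratoma, 0.450, 0.793 and 0.610 FPKM in adult and 2.85, 0.208 and 0.831 FPKM in embryo, higher in transplant than in each other group, whereas Tk1 was lower there than in each other group. Rrm2b, a reductase subunit that works outside S phase, and Rbl2, a pocket protein of quiescent cells, were higher in transplant against embryo by 0.73 and 0.93. Rbl2 was at 5.79, 5.75 and 7.38 FPKM in transplant and 5.04, 5.23 and 2.60 FPKM in teratoma. It was at 1.81, 1.83 and 2.35 FPKM in adult and 3.38, 3.26 and 1.96 FPKM in embryo, so adult did not share the rise. Rb1, the retinoblastoma gene, was higher in teratoma against embryo by 0.92 with overlapping libraries.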

How the data were processed

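Per the file headers and the labels, the deposited FPKM values come as 1 table, with 1 value for each gene symbol in each of 12 libraries of total RNA from sorted cells, prepared with the Clontech SMARTer Stranded Total RNA-seq Pico kit after RNeasy extraction with DNase I treatment. Per the submitters' processing notes, the build was mm10 and the tools, with no roles stated, were Partek, Cufflinks 2.2.1.0, TopHat 0.7 and CASAVA 1.8.2. The sources used here do not give the annotation, the read counts or the use of strand in counting, so the depth per library, and the precision it allows, are unknown. FPKM values of 240 repeated symbols among the 23746 entries were summed, leaving 23284 symbols. No replication gene was among those.

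Genes at 1 FPKM or more in at least 3 libraries were tested on log2(FPKM + 1) with limma 3.58.1 in R 4.3.3, in 1 model with a mean per group, 8 residual degrees of freedom, an intensity trend and Benjamini-Hochberg adjustment over all 12699 genes of each comparison. The steps were tested on simulated data. Measures within a library were compared with exact permutation tests (Python 3.11.15, scipy 1.17.1). Near copies of transcripts were sought with BLAST 2.17.0 (at least 95% identity over 200 bases) in GENCODE M21: 12 of the 41 genes had a near copy by this measure, 21 had an overlapping gene, and 25 had either, so their levels are uncertain to that extent. Promoter windows came from RefSeq.

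The 41 genes, the wider pathway list and the marker lists were chosen with earlier results of these data known. Values in every library are given, in each step, for the gene with the highest mean and those with the largest and smallest change in adult against embryo, and genes whose call or sign differed from the majority are named. Mcm2, Mcm5, Gmnn, Orc1, Gins1, Gins2, Prim1, Rpa1, Tk1, Ccne2 and Rbl2 were given in full after their values were seen. So were Uhrf1, Dut and Rrm2b by change alone under the rule for the wider list.

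Libraries of different groups share replicate numbers. Deviations from group means of same-numbered libraries correlated from -0.10 to 0.10 over 18 pairs, and those of differently numbered libraries from -0.10 to 0.14 over 36, so the numbers were not taken to pair the samples. Alternatives were a pseudocount of 0.1 FPKM, no filter, a mean of at least 5 FPKM, median-ratio scaling, quantile normalization, the replicate number as a block, library quality weights, a fit of only the groups compared, and leaving out each library.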

Additional observations from a re-analysis of the deposited data

Results flagged for a closer look

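For 22 genes the change in transplant against teratoma differed from that in adult against embryo by limma's test of the difference itself, with all 22 positive, which means a smaller fall in transplant against teratoma. Each difference includes, by arithmetic, the change in teratoma against embryo. The differences, on the log2(FPKM + 1) scale, were as follows. They were 3.42 for Ccne1 and 3.13 for Rfc2. They were 2.24 for Gins3, 2.24 for Gins2, 2.2 for Pold1, 2.13 for Mcm6, 2.13 for Cdc6, 2.13 for Rpa1 and 2.05 for Lig1. They were 1.93 for Rrm2, 1.92 for Prim2, 1.91 for Mcm2, 1.82 for Mcm4, 1.82 for Tyms, 1.70 for Rrm1, 1.64 for Fen1, 1.63 for Chaf1a and 1.61 for Gins4. They were 1.49 for Orc1, 1.45 for Mcm10, 1.07 for Pole and 0.92 for Mcm3. The calls of 14 of these genes held in every alternative run, and those of 8 were lost in some, most often for Gins2 (11 of 19 alternatives) and Gins4 (10 of 19).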

How the results depend on the processing

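Calls held in every alternative run for 37 of 40 genes in adult against embryo, 38 of 40 in transplant against embryo, 24 of 36 in transplant against teratoma, 15 of 29 in teratoma against embryo, 25 of 35 in teratoma against adult, 5 of 14 in transplant against adult and 14 of 22 for the difference between the 2 changes. The count of lower genes in teratoma against embryo moved to 17 with a pseudocount of 0.1 FPKM and ran from 19 (without teratoma replicate 2) to 26 when 1 library was left out. In transplant against adult it was 2 with no filter, 8 with quantile normalization (with 3 higher) and 3 with only the groups compared, and ran from 3 (without transplant replicate 2, adult replicate 1 or adult replicate 2) to 5. In teratoma against adult it was 1 with median-ratio scaling, and ran from 0 to 1 (without teratoma replicate 1). Leaving out 1 library gave 39 to 40 lower genes in adult against embryo and in transplant against embryo, 26 to 35 in transplant against teratoma, and 18 to 24 for the difference between the 2 changes. The cause of these moves was not tested. Signs turned only for changes without a call. Gins3 in transplant against teratoma was 0.045 with quantile normalization and ran from -0.68 to 0.0055 (without teratoma replicate 2). In teratoma against embryo, Orc6 ran from -0.35 to 0.079 (without teratoma replicate 2) and was 0.075 without embryo replicate 1, and Chaf1b ran from -0.89 to 0.030 (without embryo replicate 1) and was 0.025 without embryo replicate 3. Orc1 in teratoma against adult was -0.046 with quantile normalization. In the difference between the 2 changes, Mcm5 was -0.23 and Gins1 -0.68 with a pseudocount of 0.1 FPKM, and Mcm7 ran from -0.32 to 0.076 (without teratoma replicate 1). With that pseudocount the Mcm2 to Mcm7 gap was 2.91 in transplant and 5.67 in adult, Cdt1 minus Gmnn 2.88 in transplant and 5.24 in adult, Rrm2 minus Rrm1 -1.52 in adult, and Ccne1 minus Ccne2 5.44 in transplant and 2.52 in adult, since a smaller pseudocount widens differences between low values by construction. Median-ratio scaling put the Mcm2 to Mcm7 gap in adult at 3.94. With the replicate number as a block, which the data do not pair, the lower genes numbered 40 in adult against embryo, 40 in transplant against embryo, 34 in transplant against teratoma and 29 in teratoma against embryo, with 8 higher and 4 lower in transplant against adult, 34 higher in teratoma against adult and 25 positive differences. Unknown depth limits what can be said of genes near 0 in transplant and adult.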
